A study of Homo sapiens with 2 samples.

Results

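The DLK1-MEG3 locus on chromosome 14 is a cluster of imprinted genes, and its DNA methylation was read here in a control library and an Mdivi-1 library of SH-SY5Y cells. Members were taken as chromosome 14 CpGs annotated to the gene or promoter of DLK1, MEG3, RTL1 or MEG8, plus every CpG at hg19 positions 101190000 to 101330000. This rule found 1062 of the 2773807 positions in the deposited table, 746 inside the fixed range and 316 outside it. A minimum of 10 reads in both libraries left 1029 of these 1062, against 2523690 in the whole table, and the 33 left out are not used below. SH-SY5Y is a neuroblastoma cell line with neuron-like features, and Mdivi-1 is a compound used as an inhibitor of mitochondrial division. Both groups were the same cell line, the control exposed to the solvent DMSO and the other to Mdivi-1, with 1 library each and no dose or time in the labels. Target-enriched, bisulfite-converted genomic DNA was sequenced, so each value is the percent of reads that were methylated at a CpG.

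Imprinted genes are expressed mainly from the copy inherited from 1 parent, and at this locus the protein-coding genes DLK1 and RTL1 are known to be read from the paternal copy and the noncoding RNAs MEG3 and MEG8 from the maternal copy. An intergenic control region and the MEG3 promoter are known to carry methylation on the paternal copy in most tissues, so that reads from both copies together give intermediate levels. DLK1 encodes a transmembrane protein of the Delta-Notch family that is made in neuroendocrine cells, RTL1 a retrotransposon-derived protein needed in the placenta, and MEG8 a long transcript that hosts small nucleolar RNAs. Reads were not assigned to parental copies in these data.

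The MEG3 promoter is shown because the promoter levels below turn on it. The RefSeq sequence runs from 250 bases before to 50 bases after the start, at chr14:100825858-100826157 of GRCh38.p14 on the plus strand, with its CpGs in capitals.
MEG3: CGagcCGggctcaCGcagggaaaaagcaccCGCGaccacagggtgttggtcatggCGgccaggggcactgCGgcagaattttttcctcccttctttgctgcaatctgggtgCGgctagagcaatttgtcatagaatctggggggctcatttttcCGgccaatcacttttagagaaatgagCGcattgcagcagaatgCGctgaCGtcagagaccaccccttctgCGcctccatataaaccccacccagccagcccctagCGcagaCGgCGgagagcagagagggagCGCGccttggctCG
These 300 bases hold 19 CpGs, more than in 57.1% of the 35116 promoter windows of the same length, while the RTL1 window holds 6, more than in 33.7%. Sequences of 2 of the 4 members, MEG3 and RTL1, were matched. The letters TGCCGC, the core that the imprint-protecting factor ZFP57 is known to bind when methylated, were found once, 181 bases before the MEG3 start. They were searched on both strands and occur in 16.7% of promoter windows. The palindrome TGACGTCA, the full cyclic AMP response element, was found once, 50 bases before the MEG3 start, and occurs in 1.85% of windows. CCAAT was found once in the MEG3 window, 93 bases before the start, and once in the RTL1 window, 78 bases before the start, and occurs in 34.6% of windows. None of these matches overlapped another, and neither TGCCGC nor TGACGTCA was found in the RTL1 window. A match is a description of letters only.

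The table listed the MEG3 bases with hg19 positions, where the MEG3 start lies at 101292445. From 250 bases before it to 50 after it, 19 CpGs were measured, at 96.7% methylation in the control (SD 2.50 over CpGs) and 96.0% after Mdivi-1 (SD 4.0). No CpG of this stretch was below 91.8% in the control or 84.4% after Mdivi-1. In the window around the DLK1 start, 18 CpGs stood at 12.5% and 10.5%. All of them lay before the start, at chr14:101192974-101193096, and the first ones belong to the slope described below. None was measured in the 50 bases after the start. Around the RTL1 start in hg19, at 101351184, only 3 CpGs were measured, at 96.9% and 94.6%, and 0 in the MEG8 start window. The RTL1 sequence described above, at chr14:100903673-100903972 of GRCh38.p14, lies elsewhere, further upstream of that start. These 3 CpGs are thus not CpGs of that sequence, and its methylation is not given here.

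Across the locus as a whole the levels in both libraries were close. The mean over the 1029 CpGs was 75.7% in the control and 76.2% after Mdivi-1, a difference of 0.425 percentage points. Differences are Mdivi-1 minus control throughout. Its standard error from read counting was 0.208 points if CpGs are taken as independent and 8.67 if all CpGs of the locus shared the same reads. The second error uses the mean level and mean coverage, so it approximates an upper limit without being a strict one. The pair is given below as independent and shared errors. There are no replicates, so these errors cover counting only, and reads multiplied by PCR are not independent molecules. Of the 1029 CpGs, 517 were higher after Mdivi-1, 433 lower and 79 equal. The whole table moved by a like amount, from 42.6% to 43.1%, a difference of 0.460 points. Mean coverage at the locus was 43.9 reads in the control and 54.4 after Mdivi-1, against 39.7 and 49.1 in the table. When reads were pooled over CpGs in place of averaging CpGs, the difference for the locus turned to -0.377 points. Its direction thus depends on how the mean is formed. Pooling weights the CpGs of each library by that library's own coverage. With a minimum of 20 reads and CpGs averaged, the difference was 0.392 points. Why pooling changed the sign was not tested.

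The locus was more methylated than the table. CpGs over 90% made up 54.7% of the locus in the control and 56.6% after Mdivi-1, against 23.3% and 25.4% of the table. CpGs under 10% made up 11.4% and 11.7%, against 42.0% in both libraries of the table. A mean level of 20 to 80% over both libraries was found for 149 CpGs, or 14.5%, against 19.6% of the table. CpGs at intermediate levels were thus no more frequent at this imprinted locus than in the table as a whole.

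No single CpG of the locus was called. Fisher's exact test on the reads, two-sided, with Benjamini-Hochberg adjustment over the whole table, compared the 2 libraries rather than the treatments. With an adjusted p under 0.05 and a difference of at least 20 points, 0 of 1029 CpGs passed, where percent called in the table was 0.000634% (16 CpGs). An unadjusted p under 0.05 was found for 28 CpGs, 2.72% of the locus against 2.02% of the table, 15 of them higher and 13 lower after Mdivi-1. The smallest unadjusted p was 0.000646 and every adjusted p was 1. At these read numbers a count of 0 does not show that CpGs were the same. In the authors' deposited table, 19 positions of the locus carry a hyper mark (1.79% of 1062) and 13 a hypo mark (1.22%), against 2.09% and 1.62% of all positions. These marks go with a difference of at least 0.200 in the deposited fractions, and the table marked 3.71% of positions either way.

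DLK1, the paternally read gene that opens the locus, had a slope from high to low methylation before its start at 101193202. Its promoter as annotated held 62 CpGs, at chr14:101191873-101193096, with a mean of 61.3% in the control and 60.8% after Mdivi-1. The difference of -0.513 points had errors of 0.721 independent and 8.09 shared. That mean joined a methylated and an unmethylated part, as the spread over CpGs shows (SD 36.4 and 37.2). Up to 384 bp upstream of the start, 34 CpGs averaged 88.8% and 89.4%, the last of them at 95.2% (125 reads) and 95.5% (134 reads). The next 15 CpGs, from 349 to 217 bp upstream, averaged 47.5% (SD 20 over CpGs) and 44.6% (SD 21.6). They did not fall evenly, with 54.2% and 55.6% at 349 bp, 78.3% and 73.4% at 318 bp, 15.7% and 9.57% at 265 bp, and 46.2% and 43.3% at 223 bp. Both libraries were uneven in this way. Of the 15, 11 were lower after Mdivi-1 and 4 higher, a difference of -2.88 points (errors 1.58 and 6.56). From the first CpG under 10% in both, 195 bp upstream, 47 CpGs to 101193702 averaged 2.19% and 2.57%.

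**Figure D1:**
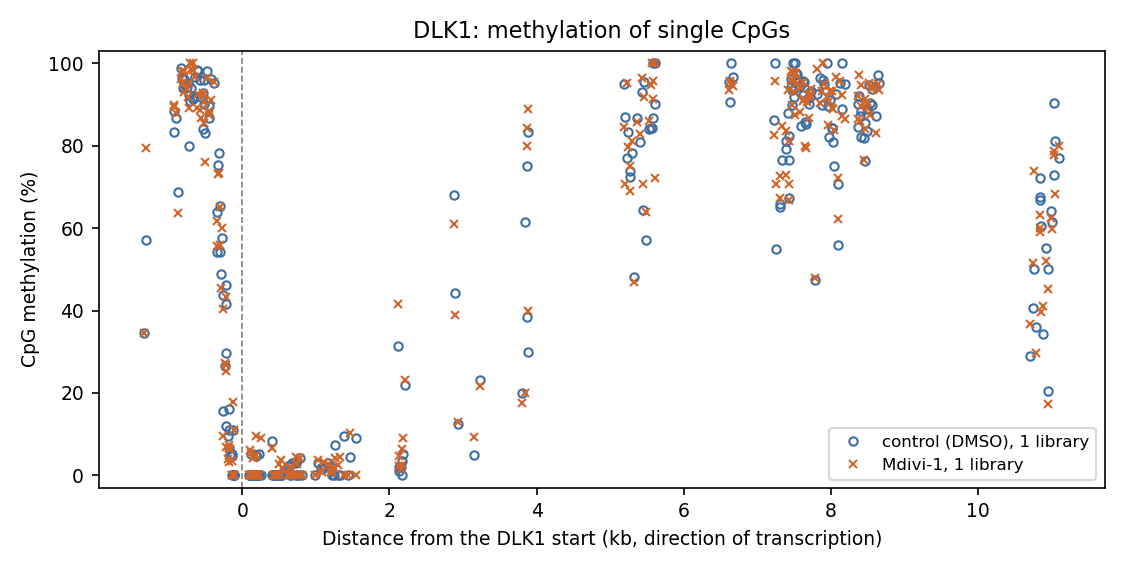
Methylation of single CpGs (%) against distance from the DLK1 start in kb, with the control as open circles and Mdivi-1 as crosses, 1 library each. The 34 CpGs up to 384 bp before the start average 88.8% and 89.4%, the next 15 slope unevenly from there, and those from 195 bp before the start average 2.19% and 2.57%.

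The unmethylated stretch of DLK1 ran on into the gene. A run of 94 CpGs over 2478 bp, chr14:101192937-101195414, averaged 4.79% in both libraries, with 32 CpGs higher, 29 lower and 33 equal after Mdivi-1. The CpG island at the start, 54 CpGs at chr14:101192853-101193457, stood at 14.9% and 14.3%, since it takes in the slope. Its difference was -0.612 points (errors 0.671 and 7.11), and it was -2.16 with a minimum of 20 reads and -2.47 with pooled reads. Inside the gene, the 20 CpGs of the 5′ UTR were at 0.989% and 1.76%, the 71 intronic CpGs at 32.1% and 32.8%, the 66 exonic CpGs at 68.7% and 69.0%, and the 44 CpGs of the 3′ UTR at 74.8% in both. The 5′ UTR was thus the lowest and the 3′ UTR the highest class in both libraries, and no class differed by 1 point or more. A further island in a coding exon, 26 CpGs at chr14:101200619-101200929, was at 90.8% and 89.8%, opposite in level to the start island. The gene body together, 201 CpGs, went from 50.4% to 50.8%, a difference of 0.442 points (errors 0.470 and 10.1).

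The end of the DLK1 3′ UTR held the 1 kb window of the gene with the lowest difference, a value set in part by the edge of the bin. Its 14 CpGs at chr14:101204034-101204298 were at 62.4% in the control and 57.4% after Mdivi-1, a difference of -5.01 points (errors 2.49 and 9.59), with 11 lower and 3 higher. With the 4 CpGs just before the edge, from 101203897 on, the 18 CpGs stood at 57.2% and 55.3%, a difference of -1.88 points (errors 2.23 and 9.82). Fisher's exact test gave no CpG of the 14 an unadjusted p under 0.0739. At the promoter, the CpG at 101193022 had 9 of 56 reads methylated in the control (16.1%) and 2 of 62 after Mdivi-1 (3.23%), unadjusted p = 0.0243 by Fisher's exact test and adjusted p = 1. It was the DLK1 CpG among the 3 of the locus with the smallest p in the lower direction.

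Between DLK1 and MEG3, 112 CpGs at chr14:101213530-101291441 averaged 75.8% in the control and 75.1% after Mdivi-1. The difference of -0.698 points had an independent error of 0.706. A run of 16 CpGs over 386 bp, chr14:101244293-101244678, stood apart from its methylated surroundings at 2.50% and 1.90%, 51091 bp after the DLK1 start. The CpG at 101242440, outside that run, went from 16 of 22 reads (72.7%) to 24 of 24 (100%), unadjusted p = 0.00797 by Fisher's exact test. Nearer to MEG3, 5 CpGs at chr14:101282574-101282718 were at 89.4% and 95.8%, 6.40 points higher (errors 3.36 and 7.03). The intergenic control region upstream of MEG3 had 0 measured positions by its textbook interval, so its level is not analysed here.

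MEG3, the maternally read noncoding RNA, had the most methylated promoter of the 3 members with a promoter annotation. Its 102 promoter CpGs, at chr14:101290571-101292464, averaged 93.9% in the control (SD 4.94 over CpGs) and 93.7% after Mdivi-1 (SD 5.11). The lowest of them was at 75.0% in the control and 74.1% after Mdivi-1. By the mean over both libraries the lowest was at 81.2%, so 0 of 102 had a mean level of 20 to 80%. The difference was -0.200 points (errors 0.597 and 5.14), with 50 CpGs higher, 49 lower and 3 equal. The promoter region known to be differentially methylated between parental copies, 168 measured CpGs from 101290571 on, was at 94.3% in both libraries. In it 146 CpGs were over 90% in the control and 141 after Mdivi-1, and its difference was 0.0196 points (errors 0.462 and 5.16). Of the 168, 0 had a mean level of 20 to 80%. The island nearest to the start, 25 CpGs at chr14:101290571-101290868, lies upstream of the start and does not reach it. It was at 93.1% and 92.1% (difference -1.01, errors 1.55 and 7.38).

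The body of MEG3 was less uniform than its promoter. Its 290 CpGs averaged 79.9% in the control and 81.1% after Mdivi-1, a difference of 1.17 points (errors 0.414 and 8.11), with 165 higher, 107 lower and 18 equal. The difference was larger than the independent error and smaller than the shared one, and with reads pooled over CpGs it was 0.485. It was larger in introns, with 226 CpGs at 79.6% and 81.0% (difference 1.37, errors 0.480 and 8.12), while 64 exonic CpGs were at 81.1% and 81.5%. The 52 CpGs annotated just upstream were at 94.7% and 95.5%, and 11 just downstream of the gene at 90.8% and 89.1%. A valley of 41 CpGs over 2223 bp, from 4383 to 6605 bp after the start (chr14:101296828-101299050), was at 27.0% and 27.8%. Levels in it ranged from 2.50% to 48.4% in the control and from 0% to 53.8% after Mdivi-1, with a difference of 0.763 points (errors 1.43 and 8.06). Of the 50 MEG3 body CpGs with a mean level of 20 to 80%, 28 lay in this valley. A shorter run of 5 CpGs, 16904 bp after the start, stood at 17.9% and 17.0%.

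**Figure D2:**
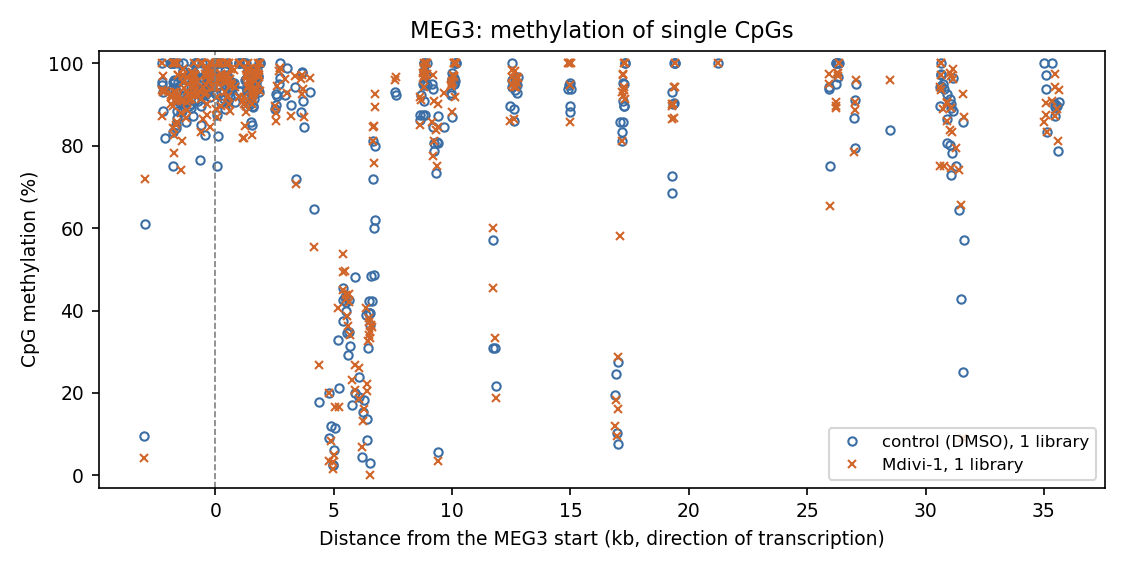
Methylation of single CpGs (%) against distance from the MEG3 start in kb, with the control as open circles and Mdivi-1 as crosses, 1 library each. The 102 promoter CpGs lie at 74.1% or above in both libraries, and a valley of 41 CpGs follows between 4383 and 6605 bp after the start.

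The largest gain of any window of the locus lay at the far edge of this valley. The 1 kb windows below are consecutive 1000 bp bins of the chromosome with at least 5 CpGs, and this one spanned chr14:101299001-101299193 with 9 CpGs. Its mean was 55.3% in the control and 64.5% after Mdivi-1, 9.28 points higher (errors 3.50 and 12.3), with 5 CpGs higher, 3 lower and 1 equal. The 3 lower CpGs were the last of the valley, at 2.94%, 48.4% and 42.4% in the control and 0%, 36.6% and 36.1% after Mdivi-1. The CpG 6652 bp after the start was at 81.2% in both. Past it, at 6666, 6703, 6706, 6740 and 6748 bp, control levels were 71.9%, 48.5%, 60.0%, 61.9% and 80%. The same 5 CpGs after Mdivi-1 were at 84.4%, 75.8%, 84.8%, 89.3% and 92.6%. The gain thus came from CpGs beyond the edge, while the 3 valley CpGs of this window were lower. Over the whole valley, 23 CpGs were higher and 17 lower. These CpGs had 20 to 33 reads in the libraries, and the smallest unadjusted p of the window was 0.0372 by Fisher's exact test. Neighbouring CpGs can share reads, so they are not separate measurements. In a later intron the MEG3 CpG at 101323596 went from 46 of 52 methylated reads (88.5%) to 73 of 74 (98.6%), unadjusted p = 0.0194 by Fisher's exact test.

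RTL1, transcribed on the minus strand with its start at 101351184, was methylated nearly throughout. Its 127 body CpGs averaged 93.5% in the control and 94.1% after Mdivi-1, a difference of 0.613 points (errors 0.465 and 4.75), with 74 higher and 49 lower. With a minimum of 5 reads the difference was 1.53. The island in its single coding exon, 23 CpGs at chr14:101348387-101348698, was at 95.9% and 96.8%, and no CpG in it was below 83.7% in the control. The promoter, 11 CpGs at chr14:101351198-101352324, was at 83.4% and 83.3%, with a wide spread over CpGs (SD 21.9 and 17.7). Its difference was -0.0646 points (errors 2.31 and 7.91). The exonic CpG at 101349174 had the smallest p of the locus in the higher direction, from 58 of 64 reads (90.6%) to 84 of 84 (100%), unadjusted p = 0.00569 by Fisher's exact test. At the other end of the gene, 11 CpGs at chr14:101347045-101347987 were at 82.1% and 77.5%, -4.59 points (errors 2.80 and 9.54). RTL1 CpGs above and below the control level thus lay within the same gene.

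The exon of RTL1 also carries microRNA genes, which are transcribed from the opposite strand of the maternal copy and several of which are known to cleave RTL1 RNA. The promoter annotations of MIR127, MIR136, MIR431, MIR432 and MIR433 together held 129 CpGs, at 93.4% in the control and 94.1% after Mdivi-1 (difference 0.636, errors 0.475 and 4.84). These annotations overlap the RTL1 CpGs and each other, so their values are not independent. MIR432, with 62 CpGs, was at 93.6% and 95.4%, 1.82 points higher (errors 0.594 and 4.06), with 41 higher and 20 lower. MIR136, with 69 CpGs, was at 94.0% and 95.5%, 1.49 points higher (errors 0.550 and 4.02). MIR431 was at 83.5% and 81.8% and MIR433 at 90% and 88.2%, both lower. MIR770, inside MEG3, was at 94.3% and 90.3% over 8 CpGs, -4.02 points (errors 2.43 and 6.72). MIR370, beyond RTL1, had 2 CpGs, at 86.7% and 89.3% (difference 2.62, errors 6.76 and 9.36). Mature microRNAs are shown for MIR432 and MIR136, the highest differences over at least 5 CpGs, and for MIR770, the lowest, 5′ to 3′ from RefSeq with the seed, bases 2 to 8, in capitals.
hsa-miR-432-5p: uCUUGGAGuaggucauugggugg
hsa-miR-432-3p: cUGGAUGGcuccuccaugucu
hsa-miR-136-5p: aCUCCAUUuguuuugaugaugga
hsa-miR-136-3p: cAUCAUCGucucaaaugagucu
hsa-miR-770-5p: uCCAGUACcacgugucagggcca
No 2 of these share a seed, nor do any of the 13 mature microRNAs matched at the locus.

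**Figure D3:**
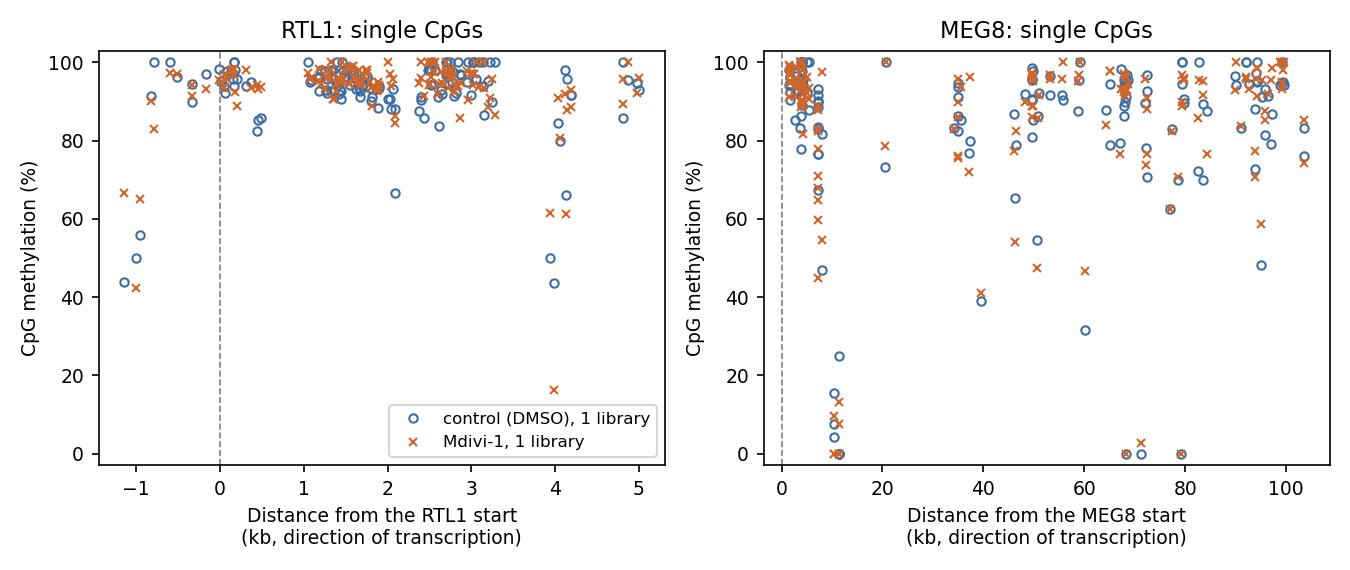
Methylation of single CpGs (%) against distance from the RTL1 start (left) and the MEG8 start (right) in kb in the direction of transcription, with the control as open circles and Mdivi-1 as crosses. RTL1 body CpGs average 93.5% and 94.1%, and MEG8 CpGs average 83.3% in both libraries.

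MEG8, the maternally read transcript that hosts the small nucleolar RNAs, had no promoter annotation among these CpGs. The 157 CpGs of its body, chr14:101357521-101459548, were at 83.3% in both libraries, a difference of 0.0732 points (errors 0.564 and 7.71), with 75 higher, 71 lower and 11 equal. A run of 7 CpGs from 10325 bp after its start was at 7.46% and 4.36%, on 16.9 and 13.7 reads per CpG. The promoters of 33 SNORD113 and SNORD114 genes, box C/D small nucleolar RNAs without known rRNA targets, held 84 CpGs at 85.7% and 86.5% (difference 0.843, errors 0.848 and 7.26), 40 higher and 39 lower. Single promoters of these held few CpGs and went both ways. SNORD114-27 was at 83% and 97.0% over 2 CpGs, 14 points higher (errors 4.46 and 6.29), and SNORD114-16 at 82.9% and 92.0% over 4 (errors 4.91 and 10.5). In the lower direction, SNORD114-18 was at 87.5% and 76.5% over 1 CpG, -11.0 points (errors 8.90 and 8.67). SNORD113-4 was at 77.1% and 71.4% over 3, -5.71 points (errors 4.73 and 8.31). SNORD113-1 was at 88.6% and 84.4% over 6, -4.25 points (errors 2.25 and 5.41). Its CpG at 101390895 went from 55 of 58 reads (94.8%) to 68 of 90 (75.6%), unadjusted p = 0.00285 by Fisher's exact test. The differentially methylated region of MEG8 had 0 measured positions by its textbook interval.

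A stretch of a MEG8 intron, with bounds chosen after the values were seen, was lower after Mdivi-1. It held 10 CpGs over 127 bp, chr14:101363168-101363294, 7182 bp after the MEG8 start and within the promoter annotation of SNORD112. In order along the chromosome, control levels were 67.4%, 90.2%, 88.5%, 90%, 91.8%, 76.5%, 83.6%, 93.1%, 83.1% and 76.6%. After Mdivi-1 they were 44.9%, 87.9%, 59.7%, 82.5%, 83.1%, 71.0%, 77.8%, 88.9%, 67.9% and 64.8%. Each of the 10 was lower after Mdivi-1, by between 2.27 and 28.8 points. The mean was 84.1% and 72.8%, a difference of -11.2 points (errors 2.39 and 7.61), on 51.5 and 67.4 reads per CpG. The difference was larger than both errors. These are single standard errors and make no allowance for the choice of the stretch, so this comparison is not a test. The CpG at 101363183 had the smallest p of the locus, from 46 of 52 reads to 37 of 62, unadjusted p = 0.000646 by Fisher's exact test, adjusted p = 1. At 101363168 the unadjusted p was 0.0368, and the other 8 CpGs had a p of 0.0524 or more. The stretch was selected for its size among the windows of the locus, and its bounds leave out the 1 higher CpG of its 1 kb window. That its CpGs share a direction thus follows in part from this choice. The full window, 11 CpGs, was at 83.9% and 75.1%, a difference of -8.79 points (errors 2.26 and 7.61). A single read can cover several CpGs of the stretch. The wider SNORD112 promoter, 12 CpGs, was at 80.8% and 73.4% (difference -7.42, errors 2.25 and 7.97).

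Counted over windows, the locus held no large shift. A window counted when its mean differed by 10 points or more, with 80% or more of the CpGs on that side. Of 54 windows of 1 kb, 0 counted in either direction, where percent called over 123163 windows of the table was 0.953% (0.580% higher and 0.373% lower). A share of 0.953% of 54 windows is under 1 window, so that 0 does not stand apart from the table. With 500 bp windows 1 of 72 counted, against 1.22% of the table (0.458% lower), and with 1 kb windows shifted by 500 bp 1 of 58 counted, against 0.970%. Both were the MEG8 stretch, which in the unshifted windows shares a bin with 1 CpG that was higher after Mdivi-1 and stands at -8.79 points. At 5 points in place of 10, 2 windows counted, 1 higher and 1 lower, against 4.44% of the table. The median absolute difference of a window was 1.44 points, against 1.38 in the table. Of the 54, 32 were above 0 and 22 below. In level, 35 windows (64.8%) were over 80%, 15 (27.8%) at 20 to 80% and 4 (7.41%) under 20%, against 32.7%, 35.2% and 32.1% of the table. A gain of 4.98 points in another MEG8 window, 9 CpGs at chr14:101359736-101359995 at 90.3% and 95.3% (errors 2.27 and 6.69), completed the 3 largest gains.

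**Figure D4:**
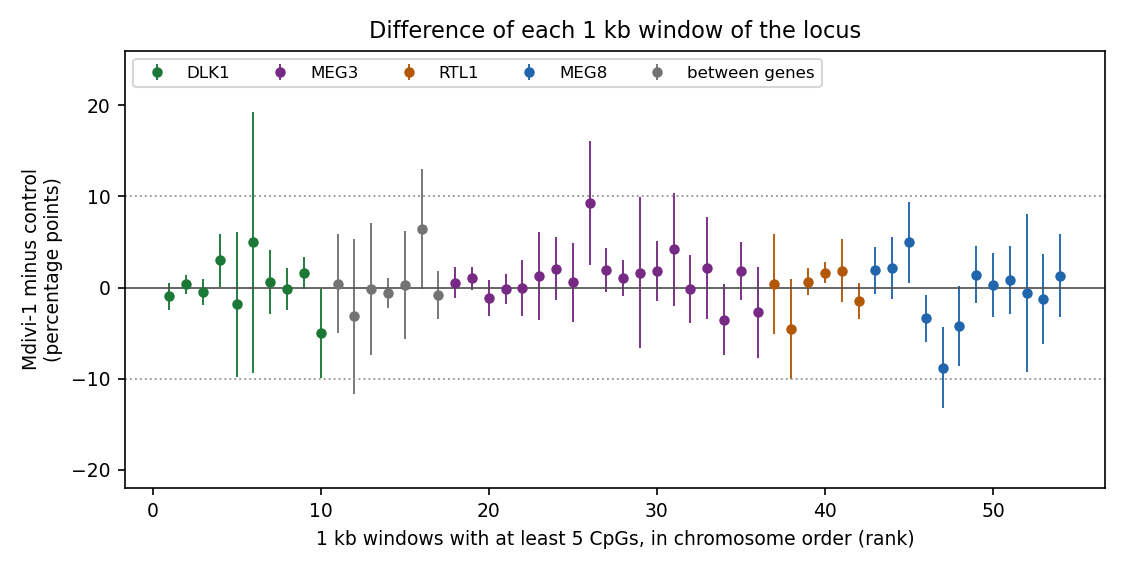
Difference (Mdivi-1 minus control, percentage points) of each of the 54 windows of 1 kb in chromosome order, coloured by gene, with bars of 95% counting intervals from the independent errors and dotted lines at 10 and -10 points. Values run from -8.79 in MEG8 to 9.28 in MEG3, and none reaches a dotted line.

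Promoters of other imprinted genes, read in the same libraries, were set beside those of the locus. The H19 promoter, of the maternally read noncoding RNA on chromosome 11, was at 76.2% and 76.0% over 133 CpGs. That of KCNQ1OT1, a paternally read antisense RNA, was at 38.8% and 37.6% over 76 CpGs, of which 65 (85.5%) had a mean level of 20 to 80%. The SNRPN promoter annotation was at 59.5% and 57.7% over 20 CpGs, GNAS at 74.6% and 73.8% over 373, and GNAS-AS1 at 87.0% and 87.3% over 89. The SNRPN CpGs span chr15:25068565-25199774 and the GNAS CpGs chr20:57412946-57466894. Their means and spreads thus join CpGs that lie far apart and do not describe 1 compact promoter. Of the 8 promoter annotations MEG3 was the highest in both libraries and had the smallest spread over CpGs. High levels were found at other imprinted promoters too, with MEST at 90.8% and 93.1% and NNAT at 90.2% and 92.4%. With 0% of its CpGs at 20 to 80%, MEG3 stood at the other end from KCNQ1OT1 among the 8. Ordered by level, MEG3, RTL1 and DLK1 overlapped in their spread over CpGs, and no test of these levels was made.

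**Figure D5:**
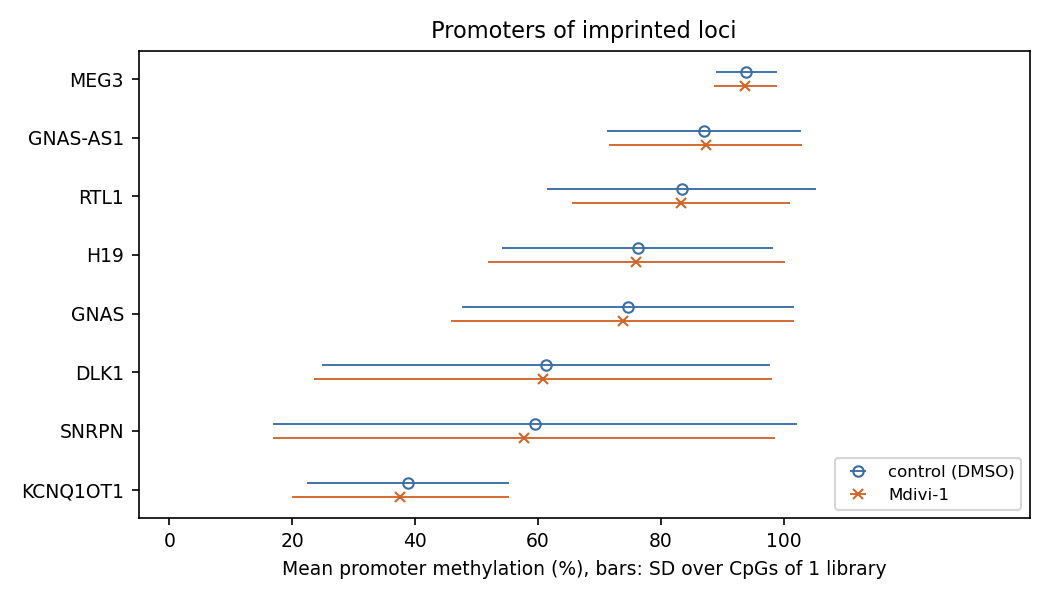
Mean promoter methylation (%) of 8 imprinted genes in the control (circles) and after Mdivi-1 (crosses), with bars of 1 SD over the CpGs of 1 library. MEG3 is the highest, at 93.9% and 93.7%, and KCNQ1OT1 the lowest, at 38.8% and 37.6%.

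Genes that act with the members were described by their promoters, beside a median difference of 0.200 points over 23526 promoters, of which 69 met the size rule for windows. In each list 0 promoters met it. Of the Delta-Notch pathway, to which DLK1 belongs, 19 of 20 promoters were measured, 9 higher and 10 lower, with a median of -0.122 points. JAG1, a ligand of Notch receptors, was at 5.12% and 9.16% (errors 1.64 and 9.36), and HES5, a Notch target, at 17.0% and 21.1% (errors 1.61 and 10.6). HEYL, another target, was at 49.5% and 53.5%. Of the factors that maintain imprints, 9 of 11 were measured, 6 higher and 3 lower, with a median of 0.517 points. KHDC3L, an oocyte factor, was at 72.6% and 78.3%, DPPA3 at 11.2% and 14.4%, and ZFP57 at 50.3% and 47.8%. None of these exceeded its shared error.

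The label of the cell line was checked on promoters, since RNA was not analysed here. Of 10 adrenergic neuroblastoma genes, 6 (HAND2, GATA3, ISL1, DBH, TBX2 and GATA2) were under 3% in both libraries, while TH, the enzyme that makes L-DOPA, was at 53.7% and 54.5%. Of 6 genes of other cell types 4 were measured. The epithelial genes EPCAM and CDH1 were at 90.3% and 88.5% and at 71.2% and 72.9%. Of the fibroblast genes, COL1A2 was at 94.5% and 95.5%, while COL1A1 was low, at 17.9% and 19.1%.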

How the data were processed

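SureSelectXT Methyl-Seq libraries of SH-SY5Y genomic DNA, 1 for the control and 1 for Mdivi-1, were sequenced on an Illumina NovaSeq, per the labels' protocols. Reads were aligned with BSMAP to hg19, per the submitters' processing notes, which give no version; the methylation caller is not stated there. For each position the authors deposited the methylated fraction, the coverage (taken as an estimated count, since some values are not whole), and the difference of the fractions, treated here as a score. Every locus position carries a minus strand mark. The RNA-seq named in the design was not analysed here.

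Control fractions match whole reads only after coverage is multiplied by 1.23, the ratio of median coverages (37 and 30 reads), and rounded. This was read from the values, and whole methylated reads were recovered from it for every locus position. Over the whole table, 10798 positions, most with coverage that is not whole, had none and were left out.

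Python 3.11.15, pandas 2.3.3 and SciPy 1.17.1 were used, and the code was tested on simulated data. CpGs needed 10 reads in both libraries. Regional levels are means over CpGs, with counting errors from binomial variances. Fisher's exact test ran over the whole table. Named items were the 4 members, every island and known regulatory region, the 3 windows with the largest gain and loss, the 3 CpGs of smallest p in each direction, windows meeting the size rule, microRNA genes at the locus, and up to 3 promoters per list. Runs of low methylation, the DLK1 slope, the edge of the MEG3 valley and the MEG8 stretch were chosen after their values were seen. The intervals of the regulatory regions came from general knowledge and may be inexact. Members and lists were chosen with earlier results of these data known. Alternatives covered the coverage minimum, read pooling, deposited fractions, very deep CpGs, the median, and window settings.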

Additional observations from a re-analysis of the deposited data

How the results depend on the processing

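Of 101 settings over 17 results, 14 that left out very deep CpGs removed none and could not change a value. Of the other 87, 75 left the value within its 95% counting interval (from the independent error) or the count the same, and 12 moved it further. Pooling reads gave -0.377 points for the locus (0.425 as the mean over CpGs), -0.635 for the fixed range (0.471) and -2.47 for the DLK1 start island (-0.612), which was -2.16 with a minimum of 20 reads. In all, 10 settings gave a difference the other sign: pooling did so for 6 results, among them the MEG3 promoter (0.228 against -0.200), so the sign of these small differences is not fixed. The DLK1 body was at 1.39 by the median over CpGs (0.442), and the RTL1 body at 1.53 with a minimum of 5 reads (0.613). The share of intermediate CpGs, 14.5%, was 31.2% at 10 to 90% and 8.75% at 30 to 70%. The window count of 0 became 1 with windows shifted by 500 bp, 1 with 500 bp windows, 1 with a minimum of 5 reads and 2 at 5 points. The cause was not tested. No paired analysis was possible because each group has 1 library, and for the same reason no library could be left out. With 43.9 and 54.4 reads per CpG on average, small differences at single CpGs were not detectable at this depth, and differences between the libraries cannot be told apart from differences between cultures.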

Other observations

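Of 25 listed genes of the wider 14q32 neighbourhood, 22 had measured promoters, and 6 of these share CpGs with the members. Of the other 16, 5 were higher and 11 lower after Mdivi-1, with a median of -0.969 points against 0.200 over all promoters. Over all 23526 promoters, 13692 were higher and 9826 lower. Several of the 16 annotations overlap, such as MIR409 with MIR410 and MIR134 with MIR485, so they are not separate measurements. None of the 22 met the size rule. Downstream of MEG8, the microRNA promoter annotations of MIR379 and MIR411, which overlap, were at 47.6% and 43.2% over 13 CpGs and at 63.4% and 58.7% over 18 CpGs, with errors of 2.41 independent and 10.9 shared, and of 1.92 and 8.90. MEG9, a noncoding RNA gene further on, was at 29.1% and 26.3% over 30 CpGs (errors 1.22 and 9.48). The DIO3 promoter, of the deiodinase gene at the far end of the imprinted domain, was at 36.3% and 35.4%, and its antisense DIO3OS at 74.4% and 74.7%. Of 21 imprinted promoters elsewhere, 14 were higher and 7 lower, with a median of 1.33 points. HYMAI was at 81.7% and 74.3% (errors 3.67 and 9.96), DIRAS3 at 59.7% and 65.1% (errors 1.5 and 6.50), and NAP1L5 at 64.6% and 59.5% (errors 1.49 and 8.94). Each of the last 3 differences was larger than its independent error and smaller than its shared error.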
